A study of Homo sapiens with 18 samples.

Results

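TGF-beta signalling was followed at the mRNA level through 9 genes, which were taken by symbol from a table of 58302 genes. They were the ligand genes TGFB1, TGFB2 and INHBA, the receptor genes TGFBR1 and TGFBR2, the signal transducer SMAD3, the inhibitory SMAD6 and SMAD7, and the target TGFBI. All 9 were found in the table, and all 9 passed the filter on low values in every comparison. The 18 libraries were poly-A selected RNA from TPC1, a human papillary thyroid carcinoma cell line, and from D11, a Dicer1 (+/-) line derived from it. D11 is a single clone obtained by genome editing, so a difference between D11 and TPC1 cannot be told apart from a difference between clones. Each line was left without transfection (NT), or received 5 nM of either a negative control siRNA (NC) or an siRNA to Dicer1 (siDicer), and RNA was collected on day 4, with 3 libraries in each of the 6 groups. The labels do not say whether the replicates were separate cultures, while the study's methods state in general terms that experiments were repeated independently. The p-values measure the spread between these libraries, which may be technical. The control of each line was the NT and NC libraries together (n = 6). In 12 of the 18 samples the title named another group than the description, and the groups used here follow the descriptions.

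TGF-beta ligands bind a pair of receptor kinases, in which the type II receptor (TGFBR2) activates the type I receptor (TGFBR1). The type I receptor phosphorylates SMAD2 and SMAD3, which enter the nucleus with SMAD4 and change transcription. SMAD7 and SMAD6 are induced by the pathway and block it at the receptor, and activin A, the dimer that INHBA encodes, signals through its own receptors to the same SMADs. In thyroid follicular cells the pathway is known for restraining growth and for epithelial to mesenchymal transition in carcinoma. Dicer cuts miRNA precursors to mature miRNAs, which pair through their seed with sites in the 3′ untranslated region (UTR) of mRNAs and lower their level or translation. miRNAs were not among the values analysed here.

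Seed matches were looked for because the siRNA acted on the enzyme that makes miRNAs. In the 3′ UTRs of the canonical transcripts of GENCODE release 44 (GRCh38), the complement of bases 2 to 8 was searched for 15 miRNAs, which share 13 seeds. These miRNAs were listed by hand as abundant in epithelial cells or known for this pathway, and all 15 were found in the RefSeq sequences used (GRCh38.p14). The 7 shown here are a selection for the example sites that follow, and others of the 15 also matched these members. The seed is in capitals.

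hsa-let-7a-5p: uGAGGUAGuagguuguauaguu
hsa-miR-21-5p: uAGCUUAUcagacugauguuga
hsa-miR-17-5p: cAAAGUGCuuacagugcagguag
hsa-miR-20a-5p: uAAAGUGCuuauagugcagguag
hsa-miR-16-5p: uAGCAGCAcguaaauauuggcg
hsa-miR-30a-5p: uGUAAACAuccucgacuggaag
hsa-miR-200b-3p: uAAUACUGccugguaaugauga

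miR-17-5p and miR-20a-5p have the same seed. The sites that follow are read 5′ to 3′ on the mRNA strand, with the seed match in capitals.

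TGFBR2, miR-21-5p, chr3:30691805-30691811, plus strand: tgacattgtcataggATAAGCTgtg
TGFBR2, miR-17-5p and miR-20a-5p, chr3:30691867-30691873, plus strand: tagccaataacatttGCACTTTatt
TGFBR1, let-7a-5p, chr9:99149380-99149386, plus strand: gggaggtcaattgttCTACCTCact
SMAD7, miR-21-5p, chr18:48920244-48920250, minus strand: tgtttagactttaacATAAGCTatt
SMAD7, miR-16-5p, chr18:48921311-48921317, minus strand: cacttcaaactacttTGCTGCTaat
INHBA, miR-30a-5p, chr7:41688868-41688874, minus strand: taataggtttgaaacTGTTTACctg
INHBA, miR-200b-3p, chr7:41688114-41688120, minus strand: tttgtgtgcaaaacaCAGTATTttt
TGFBI, miR-21-5p, chr5:136063651-136063657, plus strand: agaaatggcatcattATAAGCTatg

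The miR-21-5p match ATAAGCT stood in the 3′ UTRs of 5 members, TGFB2, TGFBR1, TGFBR2, SMAD7 and TGFBI. It was held by 8.62% of the 19461 canonical 3′ UTRs, and by 12.8% of those within 20% of the length of the TGFBR2 UTR (2543 bases). For the UTR lengths of the 5 members, this like-length share ran from 2.7% (TGFBI) to 25.1% (TGFBR1). The match of miR-17-5p and miR-20a-5p, GCACTTT, also stood in 5 members, TGFB1, INHBA, TGFBR2, SMAD6 and SMAD7. It was held by 21.2% of all canonical 3′ UTRs. Whether any seed matched the members more often than UTRs of like length was not tested. The let-7 match CTACCTC was found in TGFBR1 alone among the 9. Over all 13 seeds, TGFBR2 held 6 matches, where UTRs of like length had a median of 3, and SMAD7 held 4 in 1519 bases, where the median was 2. INHBA held 6 matches in 4536 bases, which was the median for its length, with 3 of them for miR-200b-3p. TGFBR1 held 7 matches against a median of 6, SMAD3 6 against 6, TGFB2 4 against 4, TGFB1 2 against 1, TGFBI 2 against 1 and SMAD6 1 against 2. SMAD3 and INHBA had the same number of matches, though mostly for different seeds. Whether matches go with the changes given below was not tested. A match describes letters in a window and not a site in use.

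Values are reads per gene scaled by the authors to 20 M reads per library. The libraries held 11.3 to 23.2 M reads, so that 1 read was worth 0.861 to 1.77 units, and every member lay far above that in all 18 libraries. Gene positions are those of GENCODE release 44 on GRCh38, the build the authors named. The targeted gene DICER1 followed the descriptions. In TPC1 it was 1582, 1510 and 1397 for NT, 2492, 1901 and 2366 for NC and 255, 395 and 246 for siDicer. D11 gave 655, 1157 and 923 for NT, 1536, 1433 and 1407 for NC and 297, 451 and 277 for siDicer. The siDicer mean was 15.9% of control for TPC1 and 28.8% for D11, with no overlap between groups. In the control libraries D11 had 63.2% of the DICER1 level of TPC1 (log2 fold change −0.68, limma adjusted p = 0.00561). That call was lost with NT alone (adjusted p = 0.406), with NC alone (adjusted p = 0.107) and without D11 NT replicate 1 (−0.580, under the 1.5-fold minimum).

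Markers of cell identity were read in the same libraries. Of 9 thyroid follicular cell genes, 6 had a median under 10 and NKX2-1 was at 0 in all 18 libraries, while PAX8 was at 7361 to 14886. Of 6 epithelial genes KRT8 reached 13581 and EPCAM never passed 6. The sum of 5 leukocyte genes was 765 to 1964, nearly all of it CD68, with CD3E at 0, and that of 4 endothelial genes was 2 to 18. The sum of 6 fibroblast genes moved with siDicer. It was 191 to 272 in the TPC1 control and 388 to 798 in TPC1 siDicer, and 58 to 133 in the D11 control and 153 to 254 in D11 siDicer. The sum was carried by LUM (0 to 517 over the 18 libraries), PDGFRB (12 to 167) and COL1A1 (35 to 134), while DCN was at 0 in all 18 and COL3A1 at 2 or below. These are bulk RNA values, in which fewer cells of a type and less RNA per cell cannot be told apart.

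**Figure D1:**
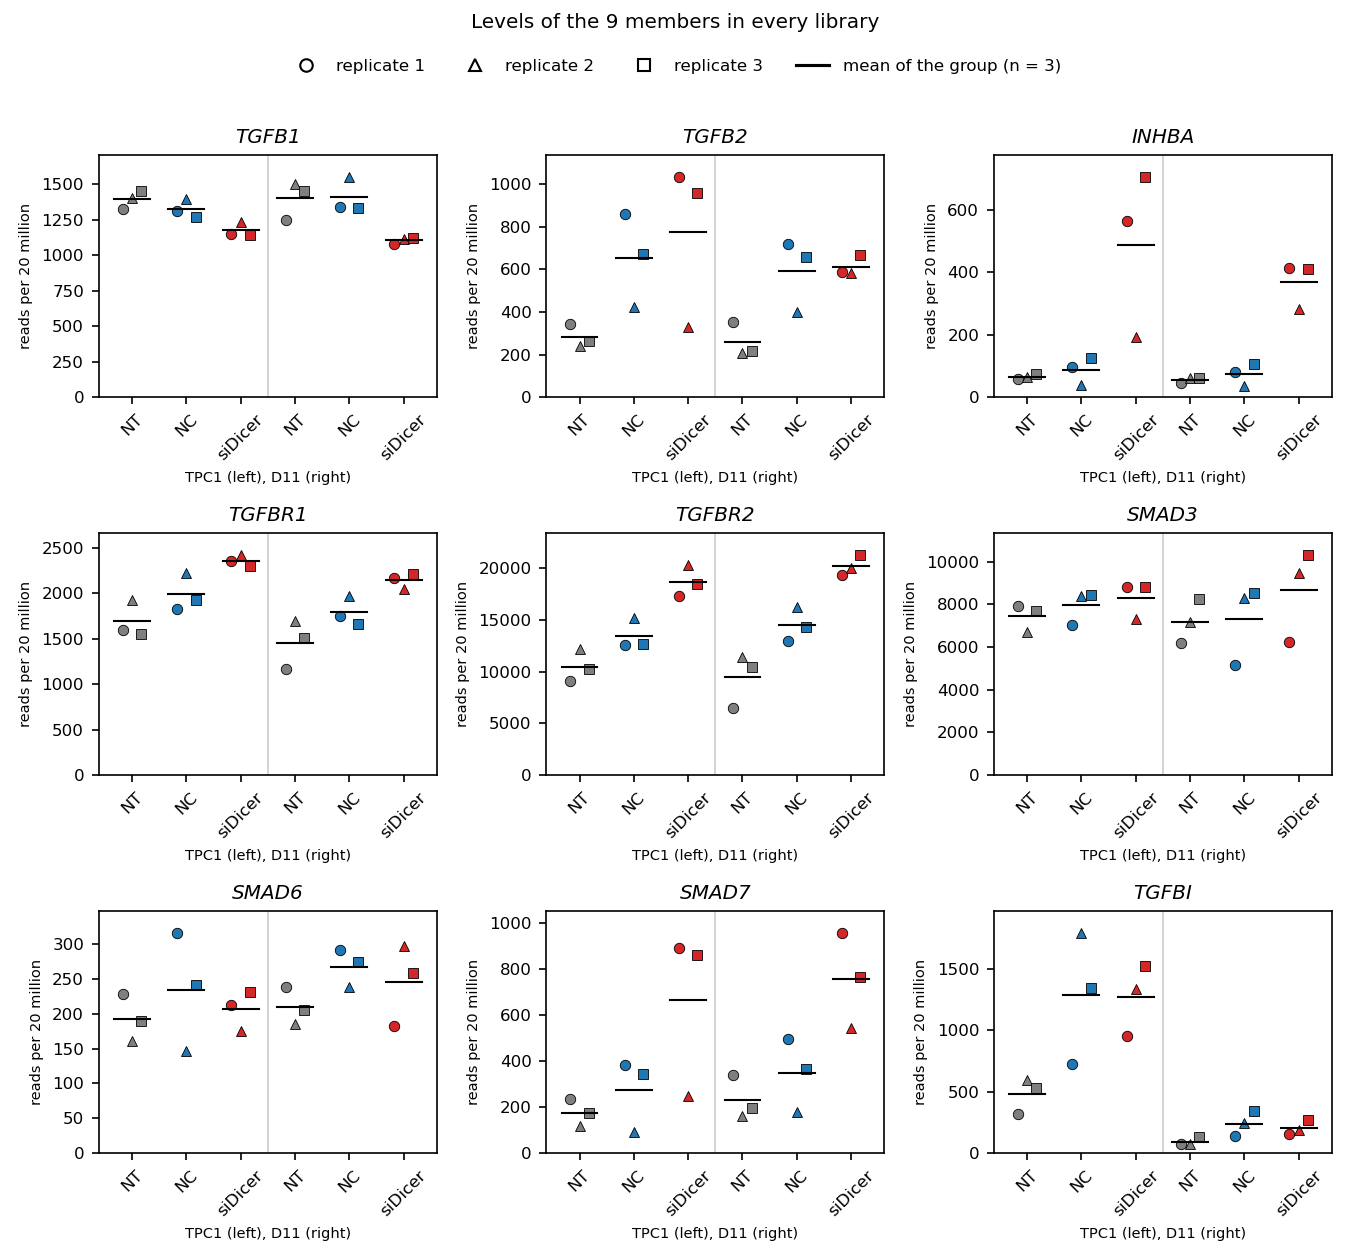
Each panel shows 1 member, with reads per 20 M on the vertical axis from 0 and the 6 groups on the horizontal axis, TPC1 on the left and D11 on the right. Circles, triangles and squares are replicates 1, 2 and 3 and the line is the mean of 3 libraries. INHBA and TGFBR2 lie above the controls in all siDicer libraries of both lines, and TGFB2, TGFBR2 and TGFBI already lie above NT in NC.

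The first comparison asked what lowering DICER1 did to the pathway. Of the 9 members, INHBA and TGFBR2 rose in TPC1, and INHBA, TGFBR2 and SMAD7 rose in D11, while none fell. A gene was called when the adjusted p of the limma fit over all genes was under 0.05 and the fold change was at least 1.5. Among all 18475 genes tested in TPC1, 3.22% were called higher and 4.16% lower, and among 18413 in D11, 5.26% were called higher and 6.75% lower. With TMM scaling the TPC1 split of 594 higher and 769 lower became 827 and 592, while the members called were the same in number. The members' median log2 fold change was 0.66 in TPC1 and 0.48 in D11, beside −0.04 for all genes in each line. In NC against NT the members' median was 0.24 in TPC1 and 0.35 in D11, beside 0.00 and 0.02 for all genes.

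INHBA, the activin A subunit gene at chr7:41667168-41705834 (ENSG00000122641), changed most of the 9. In TPC1 it was 58, 66 and 75 for NT, 98, 39 and 125 for NC and 564, 194 and 704 for siDicer. The D11 values were 46, 62 and 62 for NT, 81, 37 and 106 for NC and 413, 281 and 412 for siDicer. Every siDicer library lay above every control library, though replicate 2 was the lowest of the 3 in both lines. The mean was 6.34-fold higher in TPC1 (log2 2.55, SE 0.42, limma adjusted p = 0.00449) and 5.61-fold higher in D11 (log2 2.53, SE 0.28, adjusted p = 0.000181). INHBA overlaps exons of INHBA-AS1 on the other strand, and the strand setting of the counting was not given in the sources used here. The call held in each of 21 alternatives per line, with log2 values from 2.19 to 3.11 in TPC1 and from 2.37 to 2.72 in D11.

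TGFB1 and TGFB2, the other ligand genes, did not follow INHBA. TGFB1, at chr19:41301587-41353922 (ENSG00000105329), was 1326, 1404 and 1451 for NT, 1311, 1399 and 1270 for NC and 1150, 1235 and 1141 for siDicer of TPC1. Its D11 values were 1249, 1502 and 1454 for NT, 1342, 1549 and 1331 for NC and 1080, 1114 and 1118 for siDicer. All siDicer libraries lay under all control libraries, by a small margin. The mean was 86.4% of control in TPC1 (log2 −0.21, SE 0.08, limma adjusted p = 0.0877) and 78.6% in D11 (log2 −0.34, SE 0.09, adjusted p = 0.0201), and neither passed the 1.5-fold minimum. TGFB1 shares exon bases with HNRNPUL1 on the other strand.

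TGFB2, at chr1:218345336-218444619 (ENSG00000092969), was 344, 240 and 262 for NT, 859, 424 and 671 for NC and 1032, 330 and 959 for siDicer of TPC1. D11 had 355, 208 and 217 for NT, 717, 398 and 659 for NC and 586, 581 and 668 for siDicer. The siDicer libraries overlapped the NC libraries in both lines, and all NC libraries were above all NT libraries. Against the pooled control the log2 fold change was 0.72 (SE 0.45, limma adjusted p = 0.312) in TPC1 and 0.68 (SE 0.35, adjusted p = 0.182) in D11. Against NT alone it was 1.30 in TPC1 (adjusted p = 0.0881) and 1.27 in D11 (adjusted p = 0.00233), and against NC alone it was 0.14 and 0.09 (adjusted p = 0.869 and 0.801). TGFB2 shares exons with TGFB2-OT1 on its own strand and TGFB2-AS1 on the other.

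Of the receptors, TGFBR2 (chr3:30606601-30694142, ENSG00000163513) was 9068, 12159 and 10299 for NT, 12610, 15213 and 12659 for NC and 17354, 20309 and 18517 for siDicer of TPC1. For D11 the values were 6542, 11454 and 10494 for NT, 12957, 16278 and 14319 for NC and 19397, 20088 and 21285 for siDicer. The groups stepped up from NT to NC to siDicer with no overlap in either line. Against the pooled control the mean was 1.56-fold higher in TPC1 (log2 0.66, SE 0.14, limma adjusted p = 0.0128) and 1.69-fold higher in D11 (log2 0.81, SE 0.22, adjusted p = 0.0180). Against NC alone the log2 fold change was 0.475 and 0.486 (adjusted p = 0.0287 and 0.00827), below the fold minimum. The TGFBR2 call was also lost without TPC1 NT replicate 1 (0.581), without TPC1 siDicer replicate 1 or 3 (adjusted p = 0.0508 and 0.0681), and without D11 siDicer replicate 1, 2 or 3 (adjusted p = 0.0518, 0.0539 and 0.0810).

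TGFBR1, the type I receptor gene at chr9:99104038-99154192 (ENSG00000106799), was 1592, 1929 and 1551 for NT, 1822, 2219 and 1925 for NC and 2360, 2419 and 2298 for siDicer of TPC1. In D11 it was 1167, 1698 and 1504 for NT, 1754, 1966 and 1663 for NC and 2167, 2046 and 2213 for siDicer. The siDicer libraries lay above all controls in both lines, by less than for TGFBR2. The log2 fold change was 0.37 (SE 0.11, limma adjusted p = 0.0491) in TPC1 and 0.42 (SE 0.14, adjusted p = 0.0462) in D11, under the 1.5-fold minimum.

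The SMAD genes split. SMAD7, which recruits ubiquitin ligases to the type I receptor, lies at chr18:48919853-48950965 (ENSG00000101665). In TPC1 it was 235, 118 and 175 for NT, 385, 93 and 343 for NC and 893, 248 and 862 for siDicer. D11 libraries held 339, 161 and 194 for NT, 497, 179 and 365 for NC and 958, 544 and 766 for siDicer. Replicate 2 was the lowest in each of the 6 groups, and TPC1 siDicer replicate 2 lay among the controls. The mean was 2.97-fold higher in TPC1, which did not pass the test (log2 1.54, SE 0.51, limma adjusted p = 0.0663), and 2.61-fold higher in D11, which did (log2 1.47, SE 0.33, adjusted p = 0.00745). In TPC1 the call was made without siDicer replicate 2 (log2 2.14, adjusted p = 0.0136) and without NC replicate 1 (log2 1.73, adjusted p = 0.0458), and also with voom on the recovered reads (log2 1.59, adjusted p = 0.0473) and in the fit of all 18 libraries (adjusted p = 0.0274). In D11 it held in all 21 alternatives (log2 1.20 to 1.74).

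SMAD6, the other inhibitory SMAD (chr15:66702236-66782849, ENSG00000137834), was 146 to 316 in the TPC1 control and 176 to 231 in TPC1 siDicer. In D11 it was 185 to 292 in the control and 183 to 297 in siDicer. The groups overlapped fully, with a log2 fold change of −0.01 (SE 0.22, limma adjusted p = 0.980) in TPC1, where TMM and RLE scaling turned the sign (0.053 and 0.033), and 0.03 (SE 0.18, adjusted p = 0.927) in D11. SMAD3, the transducer at chr15:67063763-67195173 (ENSG00000166949), was 6709 to 8465 in the TPC1 control and 7310 to 8824 in TPC1 siDicer, and 5169 to 8537 and 6230 to 10311 in D11. Its log2 fold change was 0.11 (SE 0.10, adjusted p = 0.492) in TPC1 and 0.24 (SE 0.18, adjusted p = 0.363) in D11. SMAD3 shares exon bases with an unnamed gene on the other strand. In SMAD6 and SMAD3 no change with siDicer was found beyond the spread between libraries in these fits, which ignored the replicate number. With that number as a block, SMAD3 in D11 had the same log2 fold change with an SE of 0.08 (limma adjusted p = 0.0549) and was not called.

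TGFBI, a secreted matrix protein named for its induction by TGF-beta, lies at chr5:136028988-136063818 (ENSG00000120708). It was 314, 591 and 529 for NT, 722, 1789 and 1344 for NC and 952, 1331 and 1520 for siDicer of TPC1. In D11 these were 75, 76 and 129 for NT, 135, 243 and 339 for NC and 155, 187 and 272 for siDicer. As for TGFB2, NC and siDicer overlapped and both lay above NT. The log2 fold change against the pooled control was 0.74 (SE 0.45, limma adjusted p = 0.301) in TPC1 and 0.48 (SE 0.42, adjusted p = 0.439) in D11. Against NT alone TGFBI was called in both lines (log2 1.43 and 1.13, adjusted p = 0.0264 and 0.0128), and against NC alone it was 0.05 in TPC1 and −0.165 in D11 (adjusted p = 0.936 and 0.769).

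**Figure D2:**
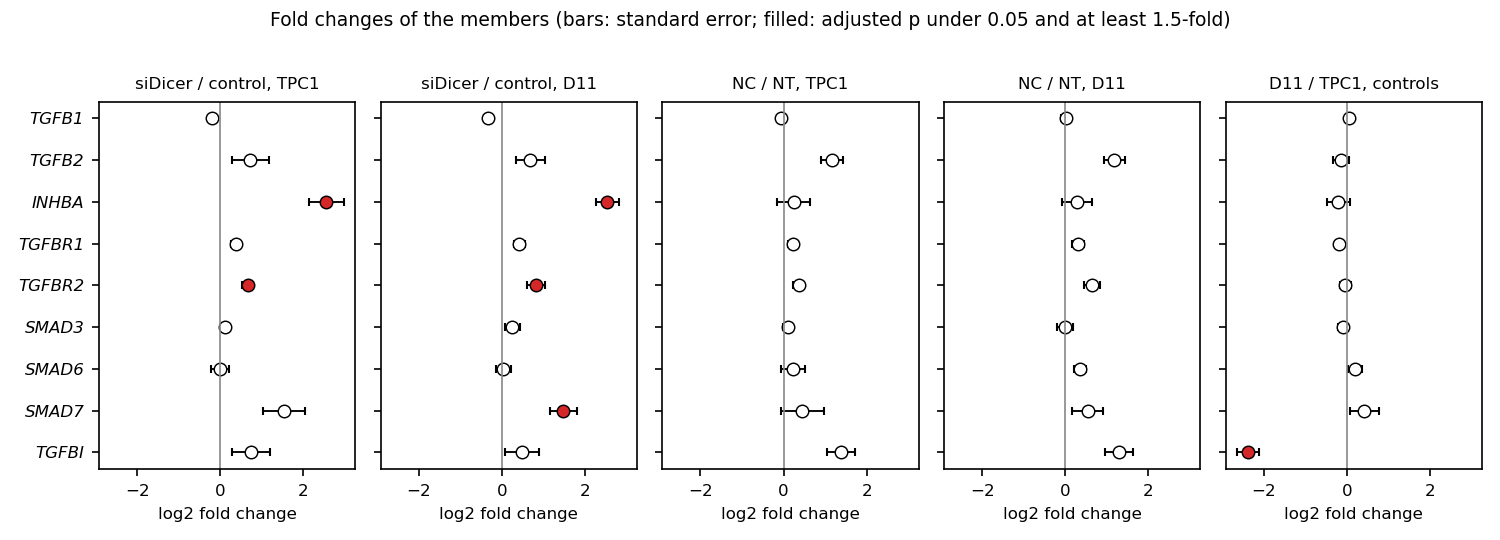
Each panel is 1 comparison, with the log2 fold change of the 9 members on the horizontal axis. Bars are standard errors of the limma fit, and filled points passed an adjusted p under 0.05 and a 1.5-fold minimum. INHBA and TGFBR2 are filled in both siDicer panels, SMAD7 in that of D11, and TGFBI in the comparison of lines.

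The second comparison asked what transfection with the control siRNA did by itself. None of the 9 members was called in NC against NT by the limma fit without a replicate block. Of all genes, this fit called 0.111% of 18008 in TPC1 and 0.35% of 17992 in D11. At an unadjusted p under 0.05 there were 3 members in TPC1 and 4 in D11, beside 2003 and 2447 of all genes tested. Voom on the recovered reads called 0 members in either line. TGFB2 in NC was 2.31 times NT in TPC1 and 2.27 times in D11 (log2 1.16 and 1.18, adjusted p = 0.152 and 0.107). TGFBI was 2.69 and 2.56 times NT (log2 1.38 and 1.30, adjusted p = 0.199 and 0.152), and TGFBR2 1.28 and 1.53 times NT (log2 0.37 and 0.65, adjusted p = 0.356 and 0.205).

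Libraries with the same replicate number deviated together in D11 (median r of 0.252) and, with 7 of 9 pairs over 0.1, in TPC1 (median r of 0.366). The fit was also made with the number as a block in both lines. In D11 the block called TGFB2 (log2 1.18, SE 0.15, limma adjusted p = 0.00615), TGFBI (log2 1.30, SE 0.19, adjusted p = 0.00897) and TGFBR2 (log2 0.65, SE 0.11, adjusted p = 0.0182), and the genes called rose in number from 63 to 315. In TPC1 it called TGFB2 (log2 1.16, SE 0.13, limma adjusted p = 0.000917) and TGFBI (log2 1.38, SE 0.10, adjusted p = 0.000199), and the genes called rose from 20 to 565. TGFBR2 in TPC1 stayed under the fold minimum (log2 0.37, adjusted p = 0.0271). Without D11 NT replicate 1, TGFB2 was called without a block (log2 1.43, adjusted p = 0.0351). INHBA stayed apart from these genes, with a log2 fold change of 0.24 (SE 0.40) in TPC1 and 0.28 (SE 0.36) in D11. DICER1 itself was 1.51 and 1.60 times NT in NC (log2 0.58 and 0.71, adjusted p = 0.133 and 0.153). With the block the limma adjusted p was 0.00721 in TPC1, under the 1.5-fold minimum, and 0.0460 in D11.

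The third comparison set D11 against TPC1 without Dicer1 siRNA. TGFBI was lower in D11, and the other 8 members were not called, beside 0.872% of 18814 genes called lower and 0.144% called higher. TGFBI in the D11 control was 18.9% of the TPC1 control (log2 −2.38, SE 0.26, limma adjusted p = 0.000104). The D11 values were below the TPC1 values within NT, within NC and within siDicer. With NC alone the log2 value was −2.42 and the call was lost (adjusted p = 0.0613), and with NT alone it was −2.34 (adjusted p = 0.0121). The other members ran from log2 −0.21 (INHBA, SE 0.28, adjusted p = 0.811) to 0.42 (SMAD7, SE 0.34, adjusted p = 0.688).

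Whether the response to siDicer differed between the lines was tested by the interaction of line and siDicer over all 18 libraries. None of the 9 members passed in the limma fit, nor did any of the 19181 genes (0%), with 133 of them and none of the members at an unadjusted p under 0.05, and 0 genes were called with voom on the recovered reads. The interaction was −0.02 (SE 0.54) for INHBA, −0.07 (SE 0.66) for SMAD7, 0.15 (SE 0.28) for TGFBR2 and −0.26 (SE 0.68) for TGFBI on the log2 scale. The call of SMAD7 in D11 and its lack in TPC1 is therefore not shown to be a difference between the lines.

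Levels were compared between members only per kb of exon, with exon lengths from GENCODE. Each length covers the exons of all annotated transcripts of a gene and can exceed that of the mRNA present, which lowers the level per kb. TGFBI was given 7.717 kb this way, while its canonical 3′ UTR has 592 bases. The order of the members depends on these lengths, and levels by the length of 1 transcript were not computed. In the TPC1 control TGFBR2 was at 1752 ± 311 reads per 20 M and kb (SD, n = 6), followed by SMAD3 at 770 ± 71.0, TGFB1 at 417 ± 21.0 and TGFBR1 at 230.2 ± 30.9. Below them stood TGFBI at 114 ± 73.2, TGFB2 at 77.1 ± 40.9, SMAD7 at 57.0 ± 30.2, SMAD6 at 24.99 ± 7.29 and INHBA at 9.27 ± 3.69. The SD ranges of neighbours overlapped from TGFBI down to SMAD6, so their order there is not beyond the spread. In the D11 control the first 4 kept this order, and TGFBI stood at 21.5 ± 13.5, next to SMAD6 at 27.9 ± 4.69, with overlapping SD ranges. In siDicer, INHBA was at 58.8 ± 31.8 in TPC1 and 44.5 ± 9.17 in D11 (SD, n = 3), above SMAD6 at 24.1 ± 3.26 and 28.8 ± 6.77, though their SD ranges met in both lines. SMAD7 was at 169 ± 92.2 and 192 ± 52.5. Per kb the receptor TGFBR2 thus remained far above the other members in every group, and the member that changed most was the one with the lowest control level.

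**Figure D3:**
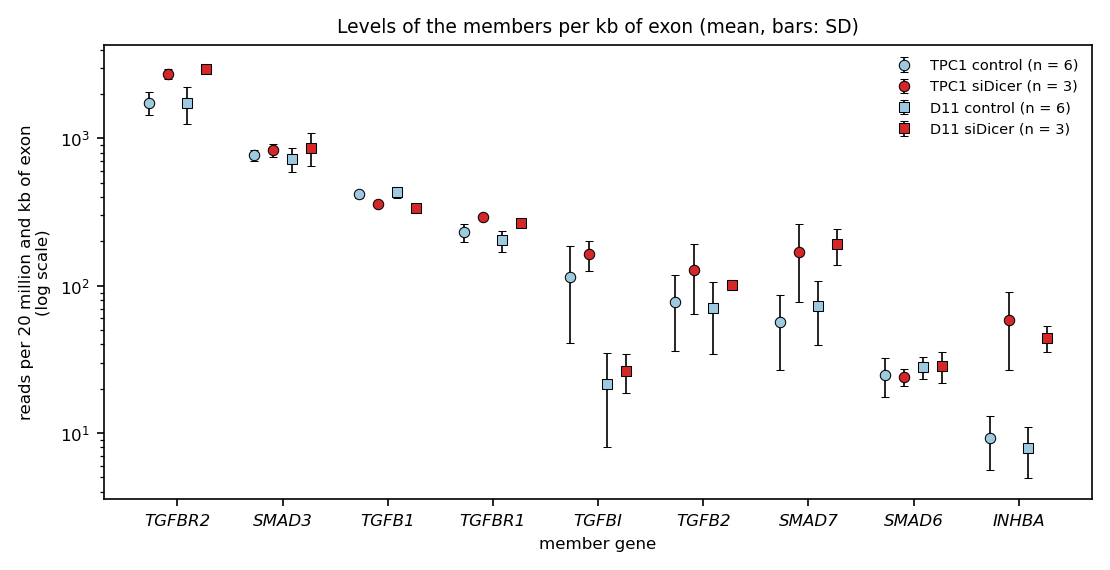
The vertical axis is reads per 20 M and kb of exon on a log scale, and members are ordered by their TPC1 control level. Points are means and bars the SD, circles TPC1, squares D11, blue the control (n = 6) and red siDicer (n = 3). TGFBR2 is the highest in all 4, and TGFBI is the member whose D11 points lie apart from TPC1.

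Within groups the members fell into sets that moved with the replicate number. Replicate 2 had less SMAD7 than the mean of replicates 1 and 3 in all 6 groups, by a log2 difference of −0.65 to −1.95, and less TGFB2 in all 6, by −0.11 to −1.59. INHBA was lower in replicate 2 of NC and siDicer in both lines (−0.55 to −1.69) and not in NT (0.00 and 0.21). DICER1 was higher in replicate 2 of siDicer by 0.66 in TPC1 and 0.65 in D11, and in replicate 2 of D11 NT by 0.57. Its difference was 0.02 in TPC1 NT, −0.35 in TPC1 NC and −0.04 in D11 NC. The part of DICER1 in the differences of the members was not tested. TGFBR1 and TGFBR2 ran the other way in NT and NC, where replicate 2 was the highest of the 3 in both lines. Over the 18 libraries, deviations from the group means had a Pearson r of 0.92 for TGFB2 and SMAD7, 0.79 for INHBA and SMAD7 and 0.90 for TGFBR1 and TGFBR2, and −0.72 for TGFBR2 and SMAD7. These are descriptions across libraries that share their depth and handling.

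Genes with the most similar levels over the 18 libraries were sought among 12508 genes with a mean of at least 100. For INHBA they were FBXO10 (r = 0.97) and TADA2B (0.96), for SMAD7 NCOA4 (0.96) and TRIM67 (0.96), for TGFBR2 MYLK (0.96) and KIAA0319L (0.95), and for TGFBR1 COL4A5 (0.97) and TOM1L2 (0.97). For TGFB2 they were TGFB2-OT1 (0.97), with which it shares exons, and GOLM1 (0.96), for TGFB1 TMEM154 (0.92) and PIK3CG (0.92), and for TGFBI COL5A2 (0.91) and UACA (0.90). SMAD3 and SMAD6 had no gene above 0.88, reached by MYADM for SMAD3 and followed by AC084337.2 (0.86), and for SMAD6 by FOXC1 and ATP8B1 (both 0.84). The 18 libraries share depth, line and treatment, so such values are a description.

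The rest of the pathway was read from a hand-written list of 100 further genes in 6 roles. In TPC1, 84 were tested, of which 15 were called higher and none lower, beside 3.22% and 4.16% of all genes tested. In D11, 84 were tested, of which 19 were called higher and 2 lower, beside 5.26% and 6.75%. The median log2 fold change of the list was 0.29 in TPC1 and 0.34 in D11, beside −0.04 for all genes. In NC against NT the list's median was already 0.15 in TPC1 and 0.18 in D11, beside 0.00 and 0.02 for all genes. With NC alone as control, siDicer called 9 genes of the list in TPC1 and 15 in D11, beside 1062 and 1585 of all genes. Within the list, 14 genes were higher in both lines, 2 receptors, 3 genes of latency and activation, 2 inhibitors and 7 targets, and no ligand or SMAD gene was. The share of all genes called in both lines is not given here. The number of list genes called in TPC1 was 5 without siDicer replicate 1, 25 without siDicer replicate 2 and 4 without siDicer replicate 3. All genes called in these fits were 446, 2094 and 427.

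Both receptors that rose bind ligands of the family. TGFBR3 (betaglycan), the co-receptor that presents TGF-beta 2 to TGFBR2, went from a control range of 391 to 616 to 936 to 952 in TPC1 (log2 0.94, SE 0.14, limma adjusted p = 0.00260), and from 271 to 497 to 886 to 992 in D11 (log2 1.27, SE 0.17, adjusted p = 0.000543). BMPR2, the type II receptor for bone morphogenetic proteins, rose by log2 0.59 in TPC1 and 0.72 in D11 (adjusted p = 0.00239 and 0.0113). The other 7 receptors tested did not pass in either line.

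Among 13 genes of latency and activation, LTBP2, a matrix protein of the latent TGF-beta binding protein family, ITGAV, the integrin chain that takes part in releasing the ligand, and FBN1, the fibrillin that anchors the latent complex, rose in both lines. Their log2 fold changes were 0.65, 0.68 and 0.68 in TPC1 (limma adjusted p = 0.0118, 0.0281 and 0.0172) and 0.64, 0.83 and 0.84 in D11 (adjusted p = 0.00768, 0.0110 and 0.0459). The other LTBP genes of the list, LTBP1, LTBP3 and LTBP4, went the other way in both lines and were not called. Their log2 fold changes were −0.62, −0.66 and −0.52 in TPC1 and −0.54, −0.75 and −0.68 in D11 (limma adjusted p from 0.0696 to 0.167). Of 10 SMAD and partner genes none was called, with medians of 0.10 and 0.22.

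Inhibitors that rose in both lines were TGIF2, a nuclear repressor of SMAD transcription, and PMEPA1, which sequesters receptor-regulated SMADs. TGIF2 was 346 to 407 in the TPC1 control and 606 to 737 in siDicer (log2 0.86, SE 0.10, limma adjusted p = 0.000965), and 298 to 398 and 620 to 748 in D11 (log2 1.03, SE 0.12, adjusted p = 0.000230). PMEPA1 rose by log2 1.13 (SE 0.20, adjusted p = 0.00582) and 0.99 (SE 0.19, adjusted p = 0.00326). The 2 list genes that fell in D11, named after their values were seen, were CHRD, an antagonist of bone morphogenetic proteins (log2 −1.17, adjusted p = 0.00823), and the ligand BMP6 (log2 −0.95, adjusted p = 0.0231). In TPC1 they were at −1.03 (adjusted p = 0.248) and −1.02 (adjusted p = 0.0531).

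Of the 28 targets tested, 8 rose in TPC1 and 11 in D11. MMP2, a gelatinase, was 1156 to 1871 in the TPC1 control and 4459 to 7019 in siDicer (log2 1.87, SE 0.18, limma adjusted p = 0.000503), and 1157 to 2592 and 5374 to 8193 in D11 (log2 2.05, SE 0.25, adjusted p = 0.000250). MMP2 was also the 1 gene of the 100 called in NC against NT, in D11 (log2 0.84, adjusted p = 0.0476). That call was lost with TMM or RLE scaling, with no filter on low values and without any 1 of the NT and NC libraries other than NT replicate 1. With the replicate block in D11, 7 of the 100 were called in that comparison, beside 315 of all genes. COL4A1, a basement membrane collagen, rose by log2 1.20 (SE 0.29, adjusted p = 0.0207) and 1.34 (SE 0.22, adjusted p = 0.00146), and CDH2 (N-cadherin) by 0.71 (SE 0.17, adjusted p = 0.0231) and 0.74 (SE 0.13, adjusted p = 0.00191). The other targets called in both lines were SNAI2, ZEB2, TAGLN and TPM1, which are mesenchymal transcription factors or contractile genes. Other mesenchymal genes of the list were not called in either line. VIM was at log2 −0.29 in TPC1 and −0.38 in D11, TWIST1 at −0.25 and −0.52, SNAI1 at 0.25 and 0.08 and ZEB1 at 0.11 and 0.26. FN1 was called higher in D11 alone and ACTA2 in TPC1 alone. The sum of the fibroblast genes moved the same way as the targets that rose, as given above, and its part in these changes was not tested.

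Of the 10 further genes named above, TGFBR3, TGIF2, PMEPA1 and MMP2 were called under all 21 alternatives in both lines. Each of the other 6 lost its call in at least 1 line when a single library was left out, while in D11 COL4A1 kept its call in all 21 alternatives and CDH2 in all but that against NC alone (0.543). In TPC1, leaving out siDicer replicate 1 ended the calls of BMPR2 (log2 0.528), LTBP2 (0.503), ITGAV (0.486), COL4A1 (0.956) and CDH2 (0.621). Leaving out siDicer replicate 3 ended those of BMPR2 (0.557), LTBP2 (0.590), ITGAV (0.632), FBN1 (0.669), COL4A1 (1.042) and CDH2 (0.630), and leaving out siDicer replicate 2 ended that of FBN1 (0.578). BMPR2 was also lost without NT replicate 1 (0.582) or 3 (0.581), and ITGAV without NT replicate 1 (0.654) or 3 (0.624) or NC replicate 3 (0.676). In D11, BMPR2 (0.676) and ITGAV (0.657) were lost without siDicer replicate 1, LTBP2 without siDicer replicate 3 (0.597) or NT replicate 1 (0.541), and FBN1 without any 1 of the siDicer libraries (0.815 to 0.872), NT replicate 3 (0.826) or NC replicate 3 (0.835). Against NC alone, BMPR2, LTBP2, ITGAV and CDH2 were not called in either line, nor COL4A1 in TPC1, and against NT alone LTBP2, ITGAV and FBN1 were not called in TPC1. FBN1 was also not called in TPC1 with the fit of all 18 libraries (adjusted p = 0.0575) or in D11 with no filter on low values (adjusted p = 0.0614).

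**Figure D4:**
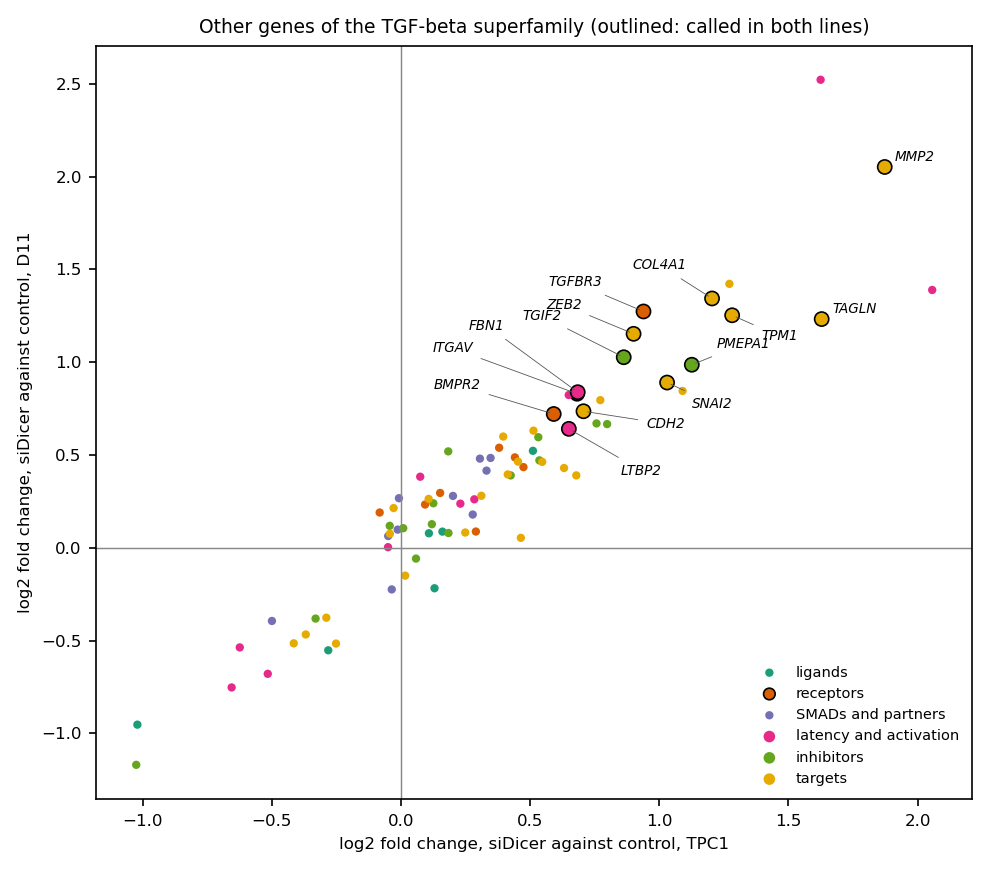
Each point is 1 of the 82 further pathway genes tested in both lines, with the log2 fold change of siDicer against control in TPC1 on the horizontal and in D11 on the vertical axis. Colours are roles, and large outlined points are the 14 genes called in both lines, all in the upper right.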

How the data were processed

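The deposited table held 1 normalised score per gene and library. Per the methods and labels, STAR 2.5.3a (GRCh38) and HTSeq 0.9.1 gave the authors reads per gene, normalised to 20 M aligned reads. The recovery of reads took each value as the reads multiplied by 20 M over the library total and rounded up. Steps between low values gave 1 read's worth, and whole reads were recovered for 99.8% or more of the values in 16 libraries. The depth of 11.3 to 23.2 M reads limits precision by counting error only. Groups were taken from the sample descriptions.

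Values were tested as log2(value + 1) with limma 3.58.1 (limma-trend, R 4.3.3) on the whole table, keeping genes at 10 or more in at least 3 libraries of the fit, with Benjamini-Hochberg adjustment over all genes. The siDicer fits held the 9 libraries of a line, the fit of lines used the 12 NT and NC libraries with NT or NC as a covariate, and the interaction used all 18. The scripts were tested on simulated data. The members, the pathway list, the miRNAs and the tests were chosen with earlier results of these data known. Named genes are the 9 members, DICER1, up to 3 genes per role called in both lines with the smallest adjusted p in D11, and the 2 genes most like each member.

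Same-numbered libraries were checked for pairing by the correlation of their deviations from group means. In D11 all 9 pairs passed 0.1 (0.106 to 0.473) and the numbers were taken as pairing. In TPC1 7 of 9 did (0.0861 to 0.509) and the numbers were not taken as pairing. The median r of same-numbered pairs was 0.252 in D11 and 0.366 in TPC1, beside −0.125 and −0.204 for different numbers. The main fits had no replicate block in either line. Alternatives were TMM and RLE scaling, other filters and pseudocounts, no fold minimum, a replicate block, voom on the recovered reads, NT or NC alone, a fit of all 18 libraries, and leaving out each library. A replicate block shared by both lines was added after seeing the data. The voom fit called 1533 genes in TPC1 and 2258 in D11 for siDicer.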

Additional observations from a re-analysis of the deposited data

How the results depend on the processing

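INHBA in both lines and SMAD7 in D11 kept their call with siDicer in every alternative run, while the calls of TGFBR2, TGFB2 and TGFBI changed with the control group or with single libraries, and that of SMAD7 in TPC1 with single libraries, voom (limma adjusted p = 0.0473), the fit of all 18 libraries (0.0274) and the block. Against control, siDicer called 1363 genes for TPC1 and 2212 for D11, and without a fold minimum 2552 and 4086, with 5 members in D11. Members called were 1 in TPC1 with NC alone, beside 1062 of all genes, and 5 in D11 with NT alone, beside 3055 of all genes. Leaving out 1 library gave 427 to 2094 genes and 1 to 3 members in TPC1 and 1374 to 2464 genes in D11. In NC against NT, with 20 and 63 genes called, no filter gave 13 and 8 genes, the fit of all 18 libraries 146 and 200, and leaving out 1 library 0 to 55 in TPC1 and 0 to 101 in D11, with 0 to 1 members in D11. For D11 against TPC1, with 191 genes called, a mean of at least 100 gave 45, NT alone 47 and NC alone 41, with 0 members for NC alone. The causes of these moves were not tested.

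With the replicate block, NC against NT called 565 genes, 2 members (TGFB2 and TGFBI) and 9 further pathway genes in TPC1 and 315 genes and 3 members in D11, D11 against TPC1 called 369 genes, or 385 with a block shared by both lines, and SMAD7 in TPC1 siDicer was called (1.537, limma adjusted p = 0.00273). The block changed no other call of a member or DICER1 except DICER1 in D11 NC against NT, given in the report. In TPC1, 7 of 9 same-numbered pairs passed the check, so the numbers were not taken as pairing there. The median r of same-numbered pairs was 0.366 in TPC1, beside 0.252 in D11.

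Several small values turned sign. SMAD6 in TPC1 siDicer became 0.053 with TMM, 0.033 with RLE, 0.010 with voom and 0.102 with NT alone, and ran from −0.111 to 0.111 with a library left out. In D11 it was −0.146 with NC alone and −0.120 to 0.228 with a library left out, and TGFBI was −0.165 with NC alone. In NC against NT of D11, TMM, RLE and library removal gave −0.020, −0.015 and −0.074 to 0.059 for TGFB1 and −0.027, −0.022 and −0.128 to 0.234 for SMAD3, which was −0.001 with voom. With a library left out, INHBA in NC against NT ran from −0.090 to 0.738 in TPC1 and −0.034 to 0.713 in D11, and SMAD6 from −0.023 to 0.532 in TPC1. In D11 against TPC1, TGFBR2 was 0.105 with NC alone and −0.090 to 0.090 with a library left out, and SMAD3 −0.154 to 0.007. The interaction was −0.022 for SMAD6 with NC alone, and with a library left out ran from −0.583 to 0.344 for INHBA, −0.007 to 0.356 for SMAD3, −0.108 to 0.239 for SMAD6, −0.671 to 0.251 for SMAD7, −0.569 to 0.252 for TGFB2, −0.045 to 0.105 for TGFBR1 and −0.013 to 0.250 for TGFBR2.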
